A study of Saccharomyces cerevisiae with 2 samples.

Results

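The genes described here are 10 genes of Saccharomyces cerevisiae that distinguish its mating types or act only in cells able to mate. They are STE2, MFA1, MFA2, BAR1 and AGA2 of a cells, STE3 and SAG1 of alpha cells, FUS1, a gene of cell fusion, and HO and RME1 of haploid cells. They were chosen by name for these roles, with earlier results of these data known, and all 10 had a row among the 7126 rows of the expression table. The table itself named 5 of them, and the other 5 were found through the locus tags that RefSeq pairs with the symbols. The strain was BL03-D-4, a carotenoid producer derived from BY4742. GAL80 was replaced in it by crtB, crtI and crtE behind the HSP26 promoter, ALD6 was deleted, and a truncated HMG-CoA reductase was driven by the CIT1 promoter. It was grown from 1 colony for 24 h either in YPM, a modified YPD with another yeast extract, phosphate and sulfate salts and trace metals, or in YPD, which the study's text names YPD2. There was 1 RNA-seq library per medium. No difference below therefore has a replicate check, no p-value was computed, and the spread that would show whether neighbouring levels differ is unknown. Levels are in TPM, the share of all transcripts on a fixed total, an estimate corrected for transcript length that keeps no record of sequencing depth.

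Budding yeast has the mating types a and alpha, set by the MAT locus. In alpha cells, the alpha1 protein activates alpha-specific genes and the alpha2 protein, together with Mcm1, represses a-specific genes. Each type secretes a pheromone that the receptor of the other type binds, and a G protein and a MAP kinase cascade carry the signal to the transcription factor Ste12. After mating, the a1 and alpha2 proteins of the a/alpha diploid together turn off haploid-specific genes, among them HO and RME1.

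The study's text states neither mating type nor ploidy for BL03-D-4. Its parent BY4742 is known as an alpha haploid that lacks LYS2, URA3, LEU2 and HIS3, whereas the related a strain BY4741 lacks MET17 instead of LYS2. LYS2, URA3, LEU2 and HIS3 were listed at 0 in both libraries, and MET17 had 38.2 TPM in YPM and 24.1 TPM in YPD. GAL80 and ALD6, the deleted genes of the genotype, were also listed at 0 in both libraries. These rows therefore follow the marker set of BY4742 and the stated genotype.

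Repression of a-specific genes acts through an operator with an Mcm1 site in the middle and an alpha2 arm on either side. The 500 bases before each start codon were searched on both strands for CATGT, a gap of 5 or 6 bases, CC, 6 bases and GG, a pattern set with these sequences in view. It was found before all 5 a-specific genes of the set and before none of STE3, SAG1, FUS1, HO and RME1, against 23 of all 6027 coding genes (0.382%). A match is a description of letters, not a test of binding. The stretches below are shown because they are what the a-specific genes share. They come from RefSeq's R64 assembly, read along the strand of each gene, and capitals mark the matched letters of the alpha2 arm and the Mcm1 site.
STE2, chrVI:82348-82387, plus strand: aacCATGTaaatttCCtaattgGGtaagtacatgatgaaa
MFA1, chrIV:1384936-1384975, plus strand: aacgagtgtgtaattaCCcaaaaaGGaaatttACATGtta
MFA2, chrXIV:352160-352198, plus strand: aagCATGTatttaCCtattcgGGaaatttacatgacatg
BAR1, chrIX:322075-322113, plus strand: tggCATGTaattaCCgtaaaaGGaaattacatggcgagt
AGA2, chrVII:437096-437134, minus strand: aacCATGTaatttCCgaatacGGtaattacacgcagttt

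The marked site ended 208 bases before the start codon of STE2, 203 before that of MFA1, 231 before that of MFA2, 244 before that of BAR1 and 278 before that of AGA2. In MFA1 the match lay on the opposite strand, so its marked arm reads ACATG after the Mcm1 site. STE2, MFA2 and BAR1 had matches on both strands.

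The a-specific genes were low in both media. STE2, the receptor for alpha-factor, had 8.70 TPM in YPM and 7.43 TPM in YPD. BAR1, a secreted protease that degrades alpha-factor, had 6.99 TPM in YPM and 6.47 TPM in YPD. AGA2, the adhesion subunit of a-agglutinin, had 1.98 TPM in YPM and 1.97 TPM in YPD. The highest of them, STE2, stood above 10.5% of the 6005 protein-coding genes in YPM and 8.26% in YPD. The median protein-coding gene had 41.4 TPM in YPM and 45.0 TPM in YPD. RNA from a few cells and a low level in every cell cannot be told apart in these bulk samples.

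MFA1 and MFA2, which encode the precursors of a-factor, were listed at 0 in both libraries. These zeros cannot be read as absent RNA. The coding sequences are 111 and 117 bases long, and all 69 protein-coding genes of up to 150 bases were listed at 0 in both libraries. Among those 69 are RPL41A and RPL41B, which encode a ribosomal protein, OST4, a subunit of the enzyme that glycosylates proteins, and PMP1, a regulator of the plasma membrane proton pump. In YPM 48.4% of the 64 genes of 151 to 200 bases were listed at 0, and in YPD 42.2%. For the 92 genes of 251 to 300 bases, the class of AGA2 with 264 bases, the shares were 7.61% in YPM and 5.43% in YPD. The coding sequences are shown because their length is what limits the reading. Capitals mark the last 4 codons before the stop, which encode the CAAX box where the lipid of a-factor is attached.
MFA1, chrIV:1385176-1385286, plus strand: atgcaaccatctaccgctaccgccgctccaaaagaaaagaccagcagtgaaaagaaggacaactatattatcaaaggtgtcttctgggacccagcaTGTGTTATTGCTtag
MFA2, chrXIV:352414-352530, plus strand: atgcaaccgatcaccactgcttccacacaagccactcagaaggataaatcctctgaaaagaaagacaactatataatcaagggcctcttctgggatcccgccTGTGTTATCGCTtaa

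**Figure D1:**
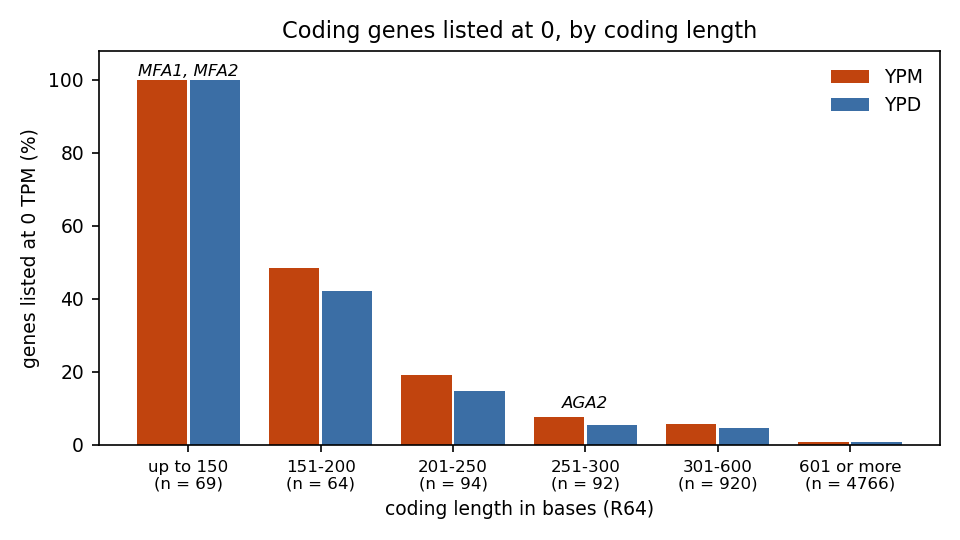
Share of protein-coding genes listed at 0 TPM (vertical axis, percent) by coding length in R64 (horizontal axis, bases), with n the number of genes, for the YPM library (red) and the YPD library (blue). All 69 genes of up to 150 bases, MFA1 and MFA2 among them, were listed at 0, against 0.923% in either library for the 4766 genes of 601 bases or more, and the AGA2 label marks only its length class.

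The alpha-specific members STE3 and SAG1 were higher than STE2, BAR1 and AGA2 in both libraries. STE3, the receptor for a-factor, had 72.7 TPM in YPM and 37.5 TPM in YPD. SAG1, the alpha-agglutinin that binds a-agglutinin, had 30.6 TPM in YPM and 44.1 TPM in YPD. As listed, SAG1 was below STE3 in YPM and above it in YPD. This order may depend on how reads were divided with the row YKL177W, which partly overlaps STE3. The TPM of STE3 and YKL177W summed to 202 in YPM and 106 in YPD. Because TPM is per length, this sum is not the level that STE3 would have with the reads of YKL177W, which was not computed. The coding sequences of STE3 and SAG1 have no 50-base word elsewhere in R64. That check does not cover a row that overlaps at the same locus, and YKL177W was not searched.

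Of the other members, FUS1 and HO were low and RME1 was high. FUS1, a membrane protein of the mating projection that is needed for cell fusion and is induced by pheromone, had 7.54 TPM in YPM and 7.16 TPM in YPD, close to STE2 and BAR1. HO, the endonuclease that cuts MAT to start mating type switching and is nonfunctional in laboratory strains of this lineage, had 3.69 TPM in YPM and 4.71 TPM in YPD. RME1, a repressor of meiosis that acts on IME1 in haploid cells, was the highest of the 10 genes, with 188 TPM in YPM and 227 TPM in YPD. That put RME1 above 87.2% of protein-coding genes in YPM and 88.6% in YPD. From high to low the order in YPM was RME1, STE3, SAG1, STE2, FUS1, BAR1, HO and AGA2, followed by MFA1 and MFA2 at 0. The order in YPD differed in having SAG1 ahead of STE3, and whether reads of YKL177W belong to STE3 was not tested.

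**Figure D2:**
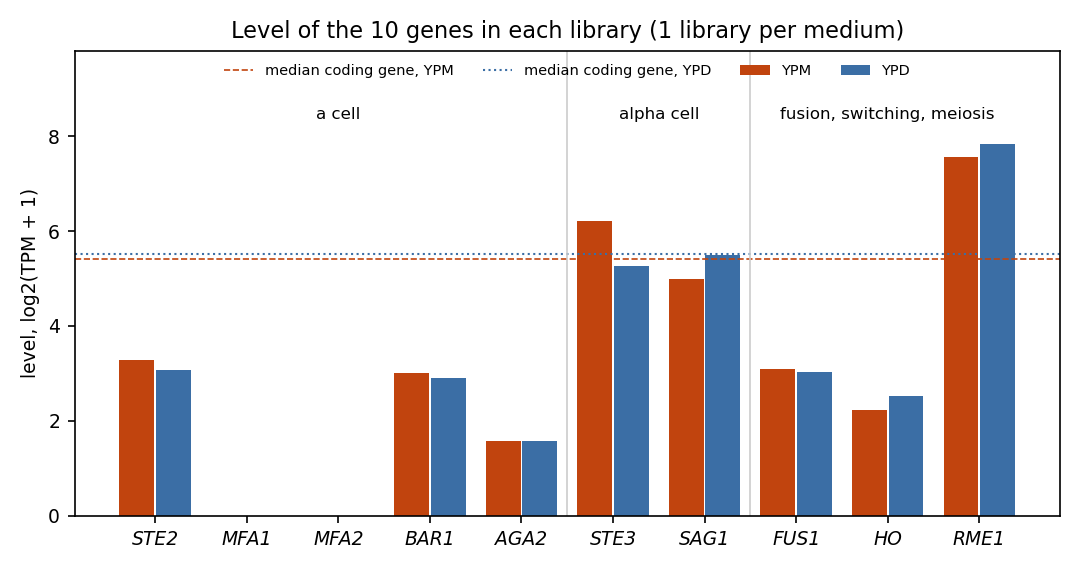
Level of each of the 10 genes as log2(TPM + 1) (vertical axis) in the YPM library (red, left bar) and the YPD library (blue, right bar), grouped by the cell type or process of the gene, with 1 library per medium and no error bars. RME1 is highest at 188 TPM in YPM and 227 TPM in YPD. In YPM, STE3 at 72.7 TPM lies above and SAG1 at 30.6 TPM below the median coding gene (dashed, 41.4 TPM). In YPD, STE3 at 37.5 TPM and SAG1 at 44.1 TPM lie below it (dotted, 45.0 TPM). MFA1 and MFA2 have no bar because they were listed at 0.

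The longer lists of cell type genes were written with earlier results of these data known. With STE6, the exporter of a-factor, and ASG7, a regulator of signalling in a cells, the a-specific list held 7 genes. STE6 was its highest gene, at 13.7 TPM in YPM and 13.4 TPM in YPD, and ASG7 had 2.69 TPM in YPM and 4.53 TPM in YPD. The alpha-specific list held 5 genes, with both alpha-factor genes and AFB1, a secreted barrier to a-factor, beside STE3 and SAG1. MF(ALPHA)1, the main source of alpha-factor, had 317 TPM in YPM and 427 TPM in YPD. The minor gene MF(ALPHA)2 was the lowest of the list, at 15.7 TPM in YPM and 13.6 TPM in YPD. AFB1 had 77.4 TPM in YPM and 49.1 TPM in YPD. The 5 a-specific genes other than MFA1 and MFA2, whose zeros cannot be read, all lay below the alpha-specific genes, in YPD by only 13.6 TPM of MF(ALPHA)2 against 13.4 TPM of STE6. The alpha-specific median was 72.7 TPM in YPM and 44.1 TPM in YPD, and the median of these 5 a-specific genes was 6.99 TPM in YPM and 6.47 TPM in YPD. Of the TPM summed over both lists without the pheromone genes of either type, alpha-specific genes held 84.1% in YPM and 79.5% in YPD. This choice of genes was made after the values were seen.

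The rows of the mating type loci showed the alpha alleles. MATALPHA2, the gene of the repressor alpha2, had 208 TPM in YPM and 185 TPM in YPD, and MATALPHA1, the gene of the activator alpha1, had 22.1 TPM in YPM and 22.7 TPM in YPD. Their log2 ratios of YPM to YPD were 0.17 and -0.04. The silenced copies HMLALPHA2 and HMLALPHA1 were listed at exactly the same values. Their coding sequences have 0 differences from those at MAT over 633 and 528 bases, so reads cannot be assigned to one locus and these rows say nothing about silencing of HML. Each listed value may be only a part of the level over both copies, and how shared reads were divided was not tested. HMRA1, the silenced gene of a1, was listed at 0 in both libraries, and no 50-base word of its coding sequence occurs elsewhere. HMRA2 was also listed at 0, but its 360 bases lie wholly within the MATALPHA2 coding sequence, so this 0 cannot be interpreted. In R64 the gene BUD5 overlaps MATALPHA2 by 4 bases and YCR041W overlaps MATALPHA1 by 59 bases, and the use of strand in counting is not stated. BUD5, which encodes an exchange factor of bud site selection, was listed at 0 in both libraries next to the level of MATALPHA2, and YCR041W had 15.7 TPM in YPM and 9.27 TPM in YPD. How reads of these neighbours were divided was not tested. The silencing genes were present, with SIR1 at 36.1 TPM in YPM and 30.8 TPM in YPD, SIR2 at 21.2 TPM in YPM and 27.8 TPM in YPD and SIR3 at 20.2 TPM in YPM and 20.7 TPM in YPD.

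All 12 genes of the haploid-specific list were listed above 0 in both libraries, from HO up to RME1, as were 95.9% of all protein-coding genes. The list median was 42.0 TPM in YPM and 47.1 TPM in YPD. The G protein that the receptors act through was represented by GPA1, its alpha subunit, at 63.1 TPM in YPM and 68.4 TPM in YPD, STE4, its beta subunit, at 46.0 TPM in YPM and 51.2 TPM in YPD, and STE18, its gamma subunit, at 98.5 TPM in YPM and 113 TPM in YPD. NEJ1, a regulator of DNA end joining that a/alpha cells turn off, had 58.7 TPM in YPM and 58.5 TPM in YPD. RME2, a noncoding RNA antisense to IME4 that haploid cells make, was chosen after its values were seen and had 94.7 TPM in YPM and 105 TPM in YPD. IME4 itself, an RNA methyltransferase gene that a/alpha cells use on the way to meiosis, was listed at 0 in both libraries. Since RME2 and IME4 overlap, their reads are told apart only by strand or by the parts that do not overlap.

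**Figure D3:**
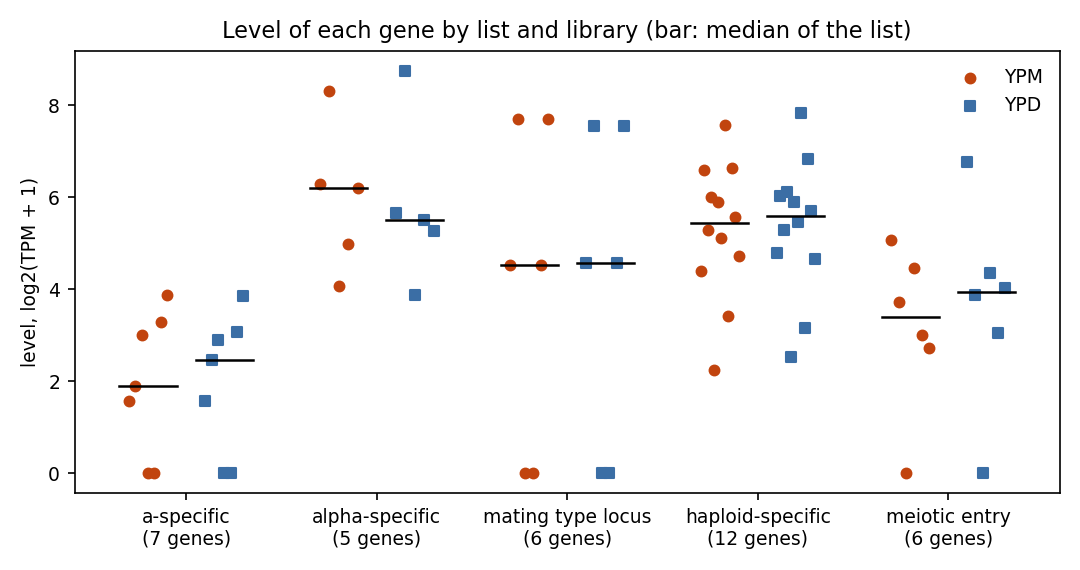
Level of each gene as log2(TPM + 1) (vertical axis) in 5 lists of cell type genes (horizontal axis, with the number of genes), for the YPM library (red circles) and the YPD library (blue squares), with the median of each list as a black bar, MFA1 and MFA2 being drawn and counted at 0. The a-specific genes reach up to 13.7 TPM in YPM and 13.4 TPM in YPD, and the alpha-specific genes start at 15.7 TPM in YPM and 13.6 TPM in YPD, and MFA1 and MFA2 cannot be placed because their zeros cannot be read.

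The question between the media was whether any of these genes differed in YPM from YPD. Each log2 ratio of YPM to YPD includes a pseudocount of 1 TPM, so changes of low genes are understated, and rows averaging under 1 TPM over both libraries were left out. A gene counted as changed where its ratio reached 1 or -1, as 535 of 6350 rows did (8.43%). Among these, 208 (3.28%) were higher and 327 (5.15%) were lower in YPM. The median of all rows was -0.13, and when YPM was rescaled to put the median gene at no change, 256 were higher and 255 lower. Of the 8 members compared none was changed, with a median log2 ratio of 0.04. The background share comes to less than 1 gene in 8, so the absence of a change is not a result about these genes.

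STE3 came nearest to the limit, with a log2 ratio of 0.94, and its TPM in YPM was 1.94 times that in YPD. Setting the median gene to no change carried STE3 past the limit, at 1.07. YKL177W, a dubious reading frame that partly overlaps STE3, had 129 TPM in YPM and 68.7 TPM in YPD, with a log2 ratio of 0.90. Reads of STE3 and YKL177W may have been divided between them. For the sum of their TPM, chosen after the values were seen, the log2 ratio was 0.92. That sum is not weighted by length, so 0.92 is not the ratio of their pooled reads. Over both libraries, the levels nearest to those of STE3 were those of MTD1, ESF1 and ANT1. MTD1, an enzyme of folate metabolism, had 73.4 TPM in YPM and 38.5 TPM in YPD, at a Euclidean distance of 0.04 on the log2(TPM + 1) scale. ESF1, a nucleolar protein, lay at a distance of 0.07, and ANT1, a peroxisomal nucleotide carrier, at 0.13. With 2 libraries such likeness rests on 2 values per gene.

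SAG1 went the other way, with a log2 ratio of -0.51, within the limit. The alpha-specific genes as a whole were thus mixed, with AFB1 at 0.65, MF(ALPHA)2 at 0.19 and MF(ALPHA)1 at -0.43, a list median of 0.19 and 0 of 5 genes changed. AFB1 also has an overlapping dubious row, YLR041W, which had 101 TPM in YPM and 57.5 TPM in YPD. The a-specific genes lay close to 0, with STE2 at 0.20, BAR1 at 0.10, STE6 at 0.03 and AGA2 at 0.00, apart from ASG7 at -0.58 on values under 5 TPM. No a-specific gene changed, and the list median was 0.03. In the haploid list, HO stood at -0.28 and RME1 at -0.27, the list median was -0.13, as for all rows, and 0 of 12 genes changed. Its highest ratio was that of FAR1, an inhibitor that arrests the cell cycle in response to pheromone, at 0.58, and its lowest that of AXL1, a protease that processes a-factor, at -0.39.

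Of the 20 signalling genes between the receptor and Ste12, 0 changed and the median was -0.15, near the -0.13 of all rows. Against 8.43% changed among all rows, counts of 0 in lists of 20 genes or fewer are no result about the lists. FAR1 was again highest, and CDC42, a GTPase of cell polarity, was lowest at -0.41, with 116 TPM in YPM and 154 TPM in YPD. STE12, the transcription factor at the end of the cascade, had 9.71 TPM in YPM and 7.95 TPM in YPD. MCM1, the partner of alpha1 and alpha2, had 119 TPM in YPM and 143 TPM in YPD. In the list for pheromone processing, 0 of 10 genes changed, from RAM1, a subunit of the enzyme that attaches the lipid of a-factor, at -0.79 to STE14, which methylates a-factor, at 0.74. In the silencing list 0 of 4 genes changed, from SIR2 at -0.37 to SIR1 at 0.22. Of the 4 rows compared in the mating type locus list 0 changed, but the HML rows only repeat the values of the MAT rows. In these lists STE18, STE20, CDC42, SIR2 and HMLALPHA1 each have an overlapping row in the table by its descriptions, with which they may share reads.

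Genes of the list for pheromone induction and cell fusion were mostly low in these cultures. The median of the 16 genes was 12.2 TPM in YPM and 11.5 TPM in YPD. FUS1 had a log2 ratio of 0.07. Upstream of FUS1, the letters TGAAACA, the element that Ste12 binds, occurred at 2 places in the 500 bases searched on both strands. They occurred before 7 of the 10 members, all but STE3, HO and RME1, before 11 of the 16 genes of this list, and before 12.0% of all 6027 coding genes. The stretch is shown because it is the textbook pheromone element of the set, with TGAAACA in capitals.
FUS1, chrIII:71611-71654, plus strand: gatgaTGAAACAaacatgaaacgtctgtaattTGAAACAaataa

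The gene of the list for pheromone induction and fusion that changed was PRM5, a membrane protein also induced by stress on the cell wall. PRM5 had 154 TPM in YPM and 67.9 TPM in YPD, a log2 ratio of 1.17. It was 1 of 15 genes compared, a share near the 8.43% of all rows, and the list median was 0.00. FUS2, which acts with FUS1 in fusion, was lowest at -0.87, with 3.82 TPM in YPM and 7.80 TPM in YPD, and passed the limit with 0.1 TPM or nothing added. PRM6 was below the minimum, at 0.43 TPM in YPM and 0.86 TPM in YPD. AGA1, the anchor subunit to which AGA2 is bound, had a log2 ratio of -0.57, with 10.7 TPM in YPM and 16.4 TPM in YPD.

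**Figure D4:**
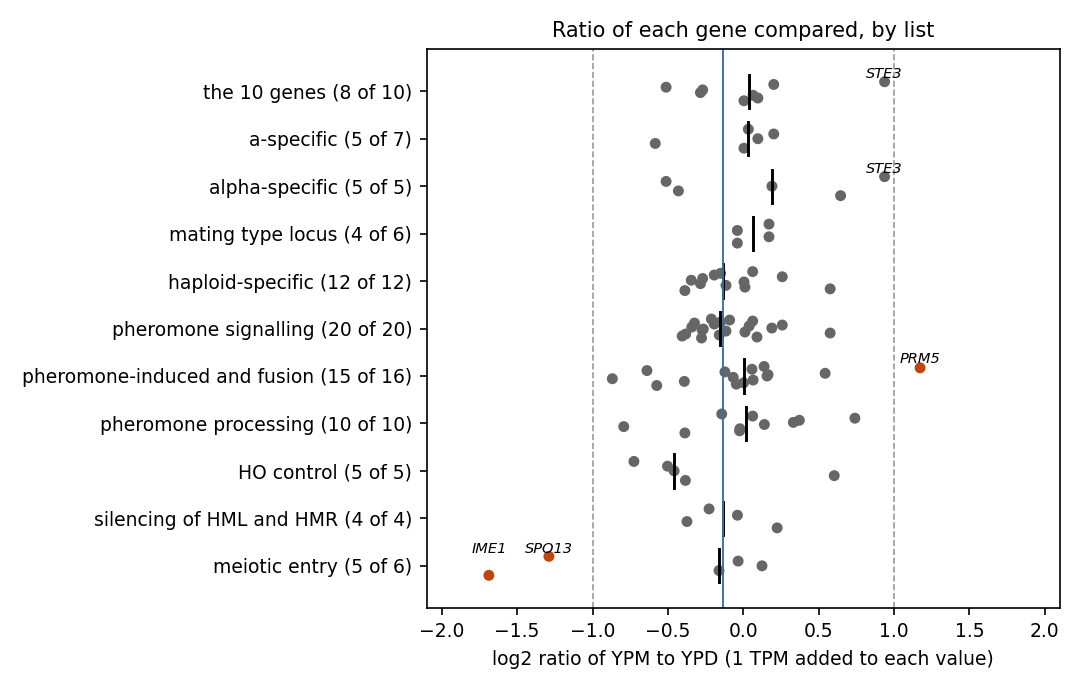
Log2 ratio of YPM to YPD with 1 TPM added (horizontal axis) for each gene compared, by list (rows, with the number compared of the number listed), with black bars for list medians, dashed lines at the limit of 1 in either direction and a blue line at the median of all rows, -0.13. Genes past the limit are red and named, and these are PRM5 at 1.17, IME1 at -1.69 and SPO13 at -1.29, while STE3 lies just inside at 0.94.

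In the list of genes for entry into meiosis, IME1 and SPO13 were lower in YPM and the others compared were within the limit. IME4 was not compared. IME1, the activator of meiosis that Rme1 represses, had 32.7 TPM in YPM and 107 TPM in YPD, a log2 ratio of -1.69. IRT1, a noncoding RNA made across the IME1 promoter in haploid cells with Rme1 as its activator, was chosen after its values were seen. IRT1 had 43.1 TPM in YPM and 131 TPM in YPD, a log2 ratio of -1.58, so both transcripts of this locus fell. SPO13, a meiosis-specific regulator of chromosome segregation, fell too, to 5.60 TPM in YPM, against 15.1 TPM in YPD, a log2 ratio of -1.29, and on adding 5 TPM in place of 1 it was within the limit at -0.93. Of the 5 meiotic genes compared 2 were lower and none higher, with a median of -0.16, beside 5.15% lower among all rows. Those within the limit included IME2, a kinase that IME1 induces, with 12.1 TPM in YPM and 13.6 TPM in YPD, and NDT80, the later meiotic activator, the highest of the list at 0.12. Reads of IRT1 that run into IME1 were not tested as a part of the IME1 value.

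Of the 5 regulators of HO compared, 4 had log2 ratios below 0, as did 63.1% of all rows, and all were within the limit. ASH1, which represses HO in daughter cells, had the highest log2 ratio of the 5 genes at 0.60, with 95.2 TPM in YPM and 62.3 TPM in YPD. SWI6, part of the factor that activates HO in late G1, was lowest at -0.73, with 15.3 TPM in YPM and 26.0 TPM in YPD. SWI5, which activates HO in mother cells, stood at -0.50. The list median was -0.46, and 0 of 5 genes changed. Upstream of HO, CACGAAA, the core of the element that Swi4 binds, occurred at 3 places in the 500 bases, against at least 1 place before 7.12% of all coding genes.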

How the data were processed

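RNA of BL03-D-4 was sequenced from 1 poly(A)-selected library per medium. The authors deposited TPM values from RSEM, and the labels also name HISAT2 and StringTie, without versions. The build, the annotation, the use of strand and the depth are not given in the sources used here, so no interval or detection limit could be computed. TPM summed to 925918 in YPM and 937091 in YPD over the rows used. The column MYPD was taken as YPM, which the labels call modified YPD. No column was left unused, and 4 empty lines were not analysed here.

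IDs were matched to RefSeq R64 for 6044 rows. Sequences, coordinates and shared 50-base words describe R64, which may differ from the authors' reference. Ratios used a pseudocount of 1 TPM, a minimum mean of 1 TPM and a limit of 1. The calculation was run on simulated data with no low genes, little noise and changes set well past the limit. That run checks the arithmetic only and says nothing about low genes or the noise of these libraries. Alternatives were pseudocounts of 0.1, 5 or none, no minimum or 10 TPM, and 3 rescalings. The design asked for values without tests. Members and the 10 other lists were chosen with earlier results of these data known. Named were all members, all genes of the a-specific, alpha-specific and mating type locus lists, each list gene past the limit, each list's highest and lowest ratio and the 3 genes nearest to STE3, and others were chosen after their values were seen or for their role. Python 3.11.15, pandas 2.3.3, numpy 2.4.6, Biopython 1.88 and matplotlib 3.10.9 were used.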

Additional observations from a re-analysis of the deposited data

How the results depend on the processing

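Under 8 alternatives to the pseudocount, the minimum and the scale, 152 of 154 values computed for 20 named genes stayed on their side of the limit, the exceptions being SPO13 at -0.93 with 5 TPM added and STE3 at 1.07 with the median gene set to no change. That rescaling therefore put 1 of the 10 members, and 1 of the alpha-specific genes, past the limit. Adding 5 TPM left 354 changed genes in all, 203 of them lower in YPM, and 1 changed meiotic gene. With 0.1 TPM or nothing added, 2 genes of the list for pheromone induction and fusion were changed, PRM5 and FUS2. The member median ranged from -0.27 to 0.14, its lowest value at a minimum mean of 10 TPM, which leaves STE3, SAG1 and RME1. Over all genes of both lists, with MFA1 and MFA2 at zeros that cannot be read, the alpha-specific share of TPM was 93.8% for YPM and 94.4% for YPD, most of it from MF(ALPHA)1, against 84.1% for YPM and 79.5% for YPD without the pheromone genes. Leaving out genes with a copy elsewhere in R64 removed none of either list. No paired analysis was possible because there was 1 library per medium, and for the same reason no library could be left out. Depth is unknown, so the precision of values under about 10 TPM, which include STE2, BAR1, AGA2, FUS1 and HO, is unknown too.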

Other observations

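The descriptions in the table name mating or pheromone in 132 rows, a search added after the values were seen. Of the 127 rows compared, 7 were changed (5.51%, beside 8.43% of all rows), 5 of them higher and 2 lower in YPM, and the median log2 ratio was -0.14. Besides PRM5 and IRT1, CHS1 (YNL192W) had 180 TPM in YPM and 68.7 TPM in YPD, a log2 ratio of 1.38. It encodes the chitin synthase that repairs the septum, and its transcription is activated by mating factor. PRM10 (YJL108C), a pheromone-regulated membrane protein, had 19.0 TPM in YPM and 8.07 TPM in YPD, a log2 ratio of 1.14. KDX1 (YKL161C), a kinase of the cell wall integrity pathway, had 71.5 TPM in YPM and 32.2 TPM in YPD, and DSE1 (YER124C), a daughter cell protein, had 98.8 TPM in YPM and 47.9 TPM in YPD. SUT2 (YPR009W), a transcription factor of sterol uptake that also promotes mating, had 7.36 TPM in YPM and 18.2 TPM in YPD, a log2 ratio of -1.20. PRM5 and KDX1 are both known as targets of Rlm1, the factor at the end of the cell wall integrity pathway. Other targets of Rlm1 were not examined, and a difference in that pathway between the media was not tested.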
